A study of Mus musculus with 27 samples.

Results

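The genes described here encode nuclear receptor coregulators, the proteins that a ligand-bound or ligand-free receptor recruits to activate or silence its target genes. The set held 9 mouse genes, Ncoa1, Ncoa2, Ncoa3, Crebbp, Ep300, Med1, Hdac3, Tbl1xr1 and Ncor1, each taken as the probe set annotated to that symbol alone. Of these, 8 genes were measured, among 18781 genes in all, and Ncor1 was not analysed here, since no probe set in use carried its symbol alone. Tbl1xr1 had a second probe set, and the set with the higher mean over the arrays stood for the gene.

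Gene expression had been followed on 27 Affymetrix Mouse Gene 1.1 ST arrays in mature 3T3-L1 adipocytes given 1 µM rosiglitazone dissolved in DMSO. The 9 groups of 3 arrays were untreated cells at time 0 and cells exposed to the drug for 30 min, for 1, 2, 6 or 12 h, or for 24, 36 or 48 h. 3T3-L1 is a clonal line of mouse embryonic origin, and all groups had been turned into fat cells with dexamethasone, insulin and isobutylmethylxanthine, so every array, untreated included, came from cells that had earlier met a glucocorticoid receptor ligand. Rosiglitazone is an agonist of PPARγ, the receptor that drives fat cell genes. A DMSO arm is mentioned in the design text, yet 0 of these samples are labelled as one, so time in culture and vehicle cannot be told apart from the drug. The labels do not say whether replicates were separate cultures, so the p-values measure the spread between arrays, which may be technical.

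Values are deposited log2 intensities, which lay between 1.67 and 13.19 over all probe sets, and array medians lay between 4.02 and 4.13. Probe sets differ in brightness for reasons of their own, so the level of each member was compared between groups and not with that of another member. Levels were set across genes only to place markers against the median gene and to choose genes as bright as the dimmest member. Both of these uses are rough. The adipocyte label was checked against markers: 10 of 10 adipocyte markers lay above the median gene, and their list mean per array ran from 11.38 to 11.49 at 48 h and from 11.45 to 11.51 in untreated cells. Of 8 macrophage markers, Cd68 alone lay above the median gene, and the defining marker Adgre1 averaged 2.72 at 48 h and 2.68 in untreated cells. None of 6 endothelial markers did (0 of 6), and the list mean ran from 3.14 to 3.21 at 48 h and from 3.10 to 3.20 in untreated cells. Preadipocyte and fibroblast markers were present, with 8 of 9 measured above the median gene. They moved with the treatment: their list mean per array ran from 7.75 to 7.80 at 48 h, against 8.38 to 8.39 in untreated cells, and 7 of 9 were called lower at 48 h, where Acta2 fell by 2.37 ± 0.12 (adjusted p = 4.66e-13, limma). The part of those cells in the results below was not tested, and in these bulk samples fewer cells of a type and less RNA per cell cannot be told apart.

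Without a ligand, receptors such as PPARγ bound to its partner RXR can hold a corepressor complex built on NCoR, which carries the deacetylase HDAC3 and the exchange factors TBL1X and TBLR1. Ligand binding reshapes the receptor so that it releases corepressors and takes up coactivators instead. The p160 coactivators SRC-1, TIF2 and SRC-3 bind the receptor through short leucine-rich motifs and bring in the acetyltransferases CBP and p300, while MED1 links the receptor to the Mediator complex and RNA polymerase II. In fat cells these proteins are known as the machinery through which PPARγ agonists work, and their own mRNA levels are what was measured here.

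Among the coactivator genes, Ncoa2, Ncoa3, Crebbp and Ep300 fell modestly at 1 to 3 of the times from 6 h on, while Ncoa1 and Med1 and the corepressor genes Hdac3 and Tbl1xr1 did not pass the test at any time. Of the calls behind these falls, only that of Ncoa2 at 36 h held in all 18 alternative settings run. The fall of Ncoa3 did not last, and its highest group mean was at 48 h. Over the whole course, 4 of 8 members changed, namely Ncoa2, Ncoa3, Crebbp and Ep300 (moderated F-test of limma over the 8 times, with Benjamini-Hochberg adjusted p below 0.05 over all 18781 genes). The same test called 40.5% of all genes, and 65.9% of the 6844 genes at least as bright as the dimmest member, so the members' share lay between the 2. With arrays centred on their medians Ep300 no longer passed this test (adjusted p = 0.113) and Med1 did (adjusted p = 0.00662). Unless another pair is named, each change is the difference of a time from untreated cells on the log2 scale, ± its SE, with limma's adjusted p. Of 64 such changes 8 passed, all of them lower, and the largest was 0.27 in size. Beside this count, the share of all genes called at a time ran from 0.0479% at 30 min to 24% at 48 h. The range of a member's 9 group means ran from 0.089 for Ncoa1 to 0.44 for Ncoa3, against a median of 0.29 over all genes and 0.34 over those bright genes. By that range Ncoa3, Ncoa2 and Crebbp lay at the 76.4, 59.6 and 57.8 percentiles of all genes, and the least variable members, Ncoa1 and Hdac3, at the 0.6 and 1.6 percentiles.

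**Figure D1:**
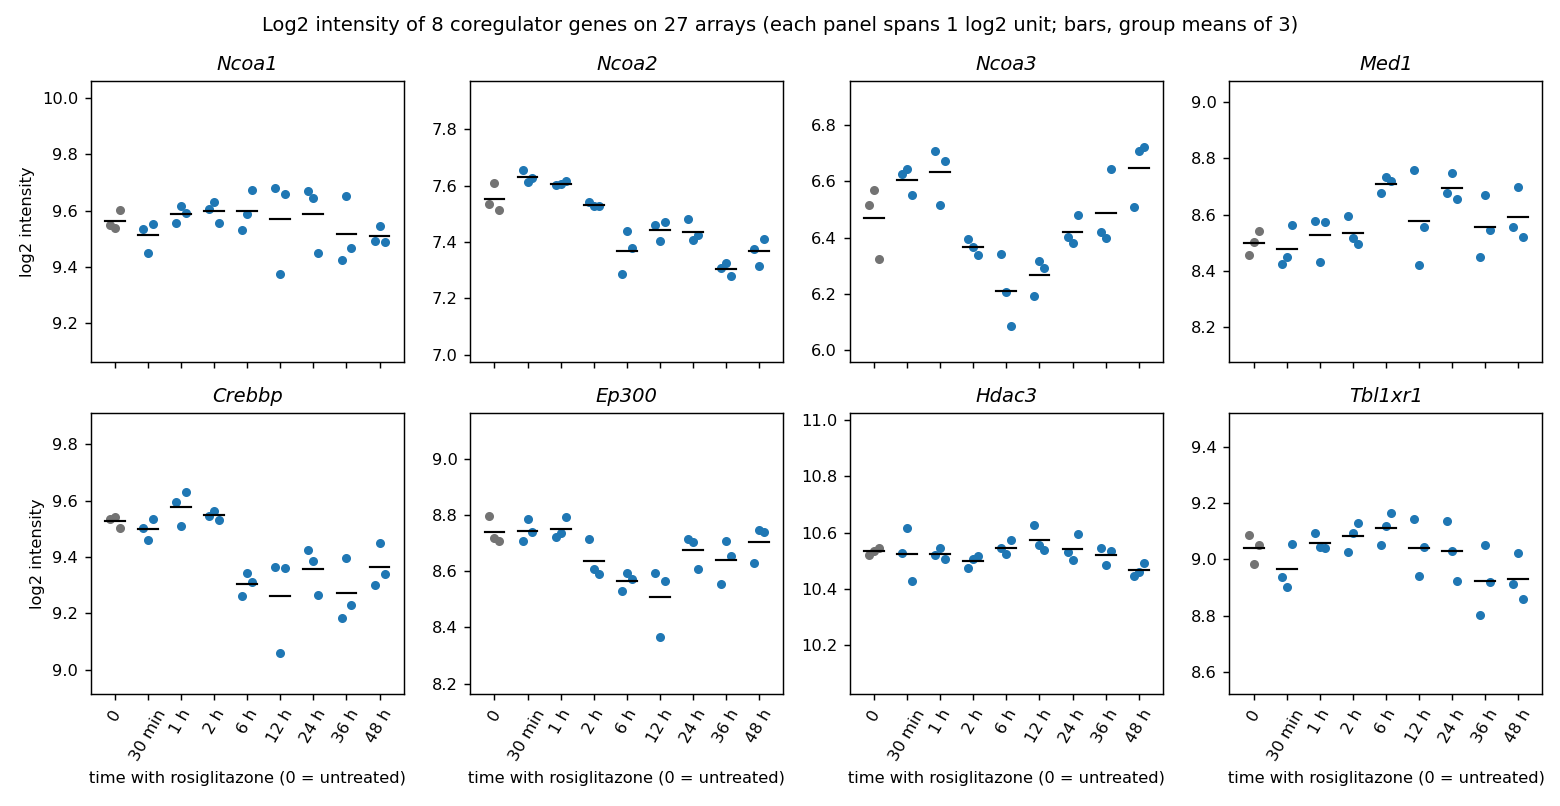
Log2 intensity of the 8 measured members on every array by time with rosiglitazone, 1 panel per gene, each spanning 1 log2 unit, with points for the 3 arrays of a group and bars for group means. Ncoa2 and Crebbp step down between 2 h and 6 h and stay below untreated, the mean of Ncoa3 is 6.21 at 6 h and 6.65 at 48 h, and the group means of Ncoa1 and Hdac3 span at most 0.11.

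Up to 2 h of exposure, 0 of 8 members passed at any of the 3 times, where 0.0479%, 0.99% and 5.91% of all genes were called by limma, and 0 members had an unadjusted p below 0.05 at those times. At 6 h, 3 members fell, against 16.6% of all genes called in either direction and 8.18% called lower. At 12 h 2 members fell (18.9% of all genes called, 9.38% lower). None was called at 24 h (0 of 8, with 20.7% of all genes called and 10.5% lower), 2 fell at 36 h (21.4% called, 10.5% lower), and 1 fell at 48 h (24% called, 11.4% lower). Among the 6844 bright genes, 11.8%, 14.5%, 15.5%, 15.6% and 17.4% were called lower at 6 h, 12 h, 24 h, 36 h and 48 h. Beside these stood 3, 2, 0, 2 and 1 of 8 members in the same order. In either direction, 30.4%, 34.2%, 36.4%, 36.6% and 39.7% of the bright genes were called. With so few members, 1 call more or less moves these shares widely. The 3 arrays of a time lay wholly beyond the 3 untreated ones for 4 members at 6 h and at 12 h and for 3 at each later time, as held for 32.4%, 32%, 35.2%, 31.2% and 36% of all genes at the 5 times in order. At 24 h, 3 members had an unadjusted p below 0.05, Ncoa2 and Crebbp lower and Med1 higher. The share of all genes below that unadjusted cut was not computed, here or for the other unadjusted counts. At 24 h it cannot be smaller than the 20.7% that passed after adjustment.

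**Figure D2:**
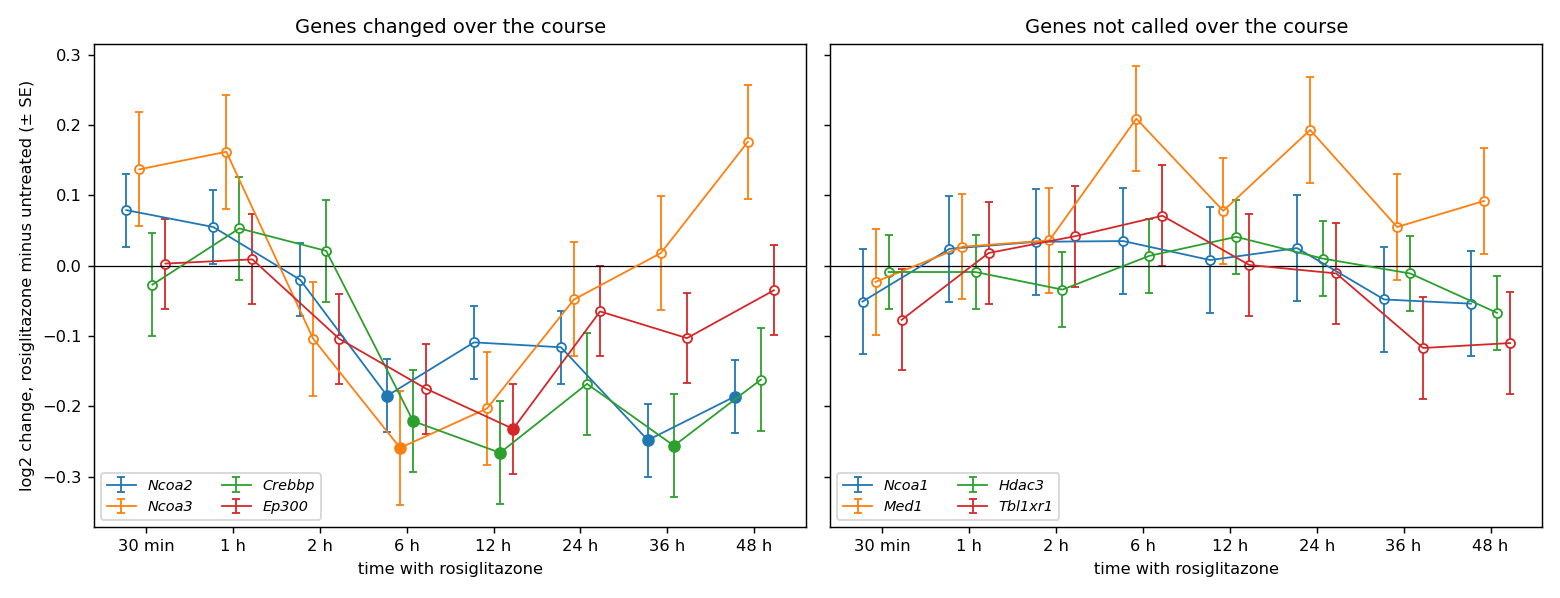
Log2 change of each member at each time after rosiglitazone minus untreated, with bars of 1 SE from limma, with 1 panel for the 4 genes called over the course and 1 for the 4 not called; filled points mark the 8 changes with an adjusted p below 0.05. The filled points, 3 at 6 h, 2 each at 12 h and 36 h, and 1 at 48 h, all lie below 0, the lowest at -0.27.

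Among the p160 coactivators, Ncoa2, which encodes TIF2 (also called GRIP1 or SRC-2), had the highest F statistic of the set (F = 9.9, adjusted p = 3.79e-05). Its untreated arrays read 7.54, 7.61 and 7.51. The arrays read 7.66, 7.62 and 7.63 at 30 min, 7.60, 7.61 and 7.62 at 1 h, and 7.54, 7.53 and 7.53 at 2 h. Up to 2 h the values thus stayed close to untreated or just above it, and the 30 min arrays lay above all 3 untreated ones without passing the test (0.079 ± 0.052, adjusted p = 0.711; 15.5% of all genes had groups that did not overlap in that comparison). The arrays then read 7.29, 7.44 and 7.38 at 6 h, 7.46, 7.40 and 7.47 at 12 h, and 7.48, 7.41 and 7.43 at 24 h. They read 7.31, 7.33 and 7.28 at 36 h, and 7.38, 7.32 and 7.41 at 48 h. Every array of 6 h to 48 h lay below every array of untreated cells and of the earlier times. When the 9 group means were ordered, 2 h (7.53 ± 0.007, SD) and 12 h (7.44 ± 0.04) were the only neighbours whose arrays did not overlap.

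Ncoa2 fell by 0.18 ± 0.05 (SE) at 6 h (adjusted p = 0.0138), by 0.25 ± 0.05 at 36 h (adjusted p = 0.000806) and likewise by 0.19 ± 0.05 at 48 h (adjusted p = 0.00917), and the 36 h level was 0.842-fold the untreated one. At 12 h and 24 h the changes of -0.11 and -0.12 missed the threshold (adjusted p of 0.161 and 0.127). The call at 36 h held in all 18 alternative settings run, in which the change ran from -0.33 to -0.17 and the adjusted p from 2.92e-05 to 0.0466. The call at 6 h was lost without untreated replicate 2 (-0.16, adjusted p = 0.0802) or 6 h replicate 1 (-0.14, adjusted p = 0.0951), and that at 48 h without untreated replicate 2 (-0.16, adjusted p = 0.0585) or 48 h replicate 2 (-0.16, adjusted p = 0.0543).

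Ncoa3 encodes SRC-3 (also called AIB1), the p160 member best known from breast cancer, and it too changed over the course (F = 7.45, adjusted p = 0.000296). Its arrays read 6.52, 6.57 and 6.33 in untreated cells, 6.63, 6.64 and 6.55 at 30 min, and 6.71, 6.52 and 6.67 at 1 h. They read 6.39, 6.37 and 6.34 at 2 h, 6.34, 6.21 and 6.09 at 6 h, and 6.19, 6.32 and 6.29 at 12 h. The 6 h and 12 h arrays were thus among the lowest, although the highest of the 6 h arrays overlapped the lowest untreated one. The arrays read 6.40, 6.38 and 6.48 at 24 h, 6.42, 6.40 and 6.65 at 36 h, and 6.51, 6.71 and 6.72 at 48 h. By 48 h the group mean of 6.65 ± 0.12 was the highest of the 9, with arrays on both sides of the highest untreated array.

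Ncoa3 fell by 0.26 ± 0.08 at 6 h (adjusted p = 0.0276) while the 12 h change of -0.20 ± 0.08 (adjusted p = 0.0869) and the 48 h change of 0.18 ± 0.08 (adjusted p = 0.125) were not called. The 6 h call was lost without untreated replicate 1 (-0.24, adjusted p = 0.0973), untreated replicate 2 (-0.21, adjusted p = 0.142), 6 h replicate 2 (-0.26, adjusted p = 0.0705) or 6 h replicate 3 (-0.20, adjusted p = 0.163). Leaving out untreated replicate 3 brought the 12 h change past the threshold (-0.28, adjusted p = 0.0311), and leaving out 48 h replicate 1 did so at 48 h (0.24, adjusted p = 0.0467).

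Ncoa1, which encodes SRC-1, gave no call at any time (F = 0.505, adjusted p = 0.874). Its group means lay between 9.51 at 48 h and 9.60 at 6 h, with 9.56 ± 0.03 in untreated cells, and the arrays of every pair of neighbouring group means overlapped. The largest change was -0.054, and over the 8 times the 95% intervals stayed between -0.21 and 0.19. The array values ran from 9.38 to 9.68, with the lowest value in 12 h replicate 2.

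Changes between exposure times leave the untreated arrays out of the difference, though not out of the shared estimate of the spread. They included calls in opposite directions for Ncoa2 and Ncoa3. At 48 h against 2 h, Ncoa2 fell by 0.17 ± 0.05 (adjusted p = 0.0197) and Ncoa3 rose by 0.28 ± 0.08 (adjusted p = 0.0123), 2 of 8 members called where 23.7% of all genes were, 12.2% higher and 11.5% lower. In both genes the 3 arrays at 48 h lay wholly beyond the 3 at 2 h, as held for 37.9% of all genes. The Ncoa2 call was lost without 2 h replicate 1 (-0.16, adjusted p = 0.0559), 2 h replicate 2 (-0.17, adjusted p = 0.0508) or 48 h replicate 2 (-0.14, adjusted p = 0.0962). Centring the arrays ended the Ncoa2 call as well (-0.145, adjusted p = 0.0733). The Ncoa3 call was lost without 48 h replicate 2 (0.25, adjusted p = 0.0574) or 48 h replicate 3 (0.24, adjusted p = 0.0622). At 24 h against 6 h (11.5% of all genes called) and 48 h against 24 h (1.46%), 0 members passed and 1 had an unadjusted p below 0.05 in each, Ncoa3, at 0.21 ± 0.08 (adjusted p = 0.101) and 0.22 ± 0.08 (adjusted p = 0.168).

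Crebbp and Ep300 encode CBP and p300, closely related histone acetyltransferases that p160 proteins bring to receptors. Promoter sequence is shown for this pair, whose transcripts fell, and for Ncoa1 beside them as a coactivator gene without a call. The sequences are those of RefSeq on GRCm38.p6, from 250 bases before to 50 after the annotated start, 5′ to 3′ on the gene's strand. Capitals mark GGGCGG, the core of a GC box, or its reverse complement. The windows are chr16:4213355-4213654 on the minus strand for Crebbp, chr15:81585964-81586263 on the plus strand for Ep300 and chr12:4477133-4477432 on the minus strand for Ncoa1.
Crebbp: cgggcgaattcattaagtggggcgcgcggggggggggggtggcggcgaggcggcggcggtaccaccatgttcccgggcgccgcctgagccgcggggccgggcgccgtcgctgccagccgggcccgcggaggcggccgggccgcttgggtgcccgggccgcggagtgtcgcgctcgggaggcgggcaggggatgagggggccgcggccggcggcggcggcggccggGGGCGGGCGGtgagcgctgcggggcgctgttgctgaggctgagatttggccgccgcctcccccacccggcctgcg
Ep300: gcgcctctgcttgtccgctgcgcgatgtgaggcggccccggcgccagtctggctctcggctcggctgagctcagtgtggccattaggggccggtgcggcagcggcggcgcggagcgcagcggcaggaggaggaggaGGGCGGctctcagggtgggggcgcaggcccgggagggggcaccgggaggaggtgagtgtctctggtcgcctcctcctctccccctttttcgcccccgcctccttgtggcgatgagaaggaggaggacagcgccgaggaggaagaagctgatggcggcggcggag
Ncoa1: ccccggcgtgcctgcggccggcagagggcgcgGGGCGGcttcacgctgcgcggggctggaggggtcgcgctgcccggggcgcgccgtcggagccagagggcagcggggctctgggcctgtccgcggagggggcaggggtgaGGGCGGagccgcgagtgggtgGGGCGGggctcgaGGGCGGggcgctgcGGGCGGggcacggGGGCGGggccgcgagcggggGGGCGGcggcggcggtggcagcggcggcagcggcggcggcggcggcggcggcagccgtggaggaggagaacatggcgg

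The windows were rich in G and C, at 82.0% for Crebbp with 49 CpG dinucleotides, 72.3% for Ep300 with 30 and 84.7% for Ncoa1 with 49, against medians of 52.7% and 7 over 32851 promoters. A promoter was matched for 5 measured members, which also include Med1 (68.3% G and C) and Tbl1xr1 (76.3%). GGGCGG, searched on both strands, was in all 5 windows, with 7 matches for Ncoa1, 2 overlapping ones for Crebbp and 1 each for Ep300, Med1 and Tbl1xr1, and 35.7% of all promoters held it. The DR1 repeat, the textbook PPAR and RXR element, searched as AGGTCA, any base and AGGTCA again on both strands, was in 0 of the 5 windows and in 0.0396% of all promoters. Its single repeat unit AGGTCA, which any direct repeat also contains, was likewise in 0 of the 5, against 16.3% of all promoters. The window of Med1 held 1 CCAAT (37.4% of all promoters). These 5 windows held no match on either strand to TGACGTCA (1.79% of all promoters), CACGTG (7.15%), CCGGAAGT (3.89%) or the NRF1 palindrome, GCGCA followed by its reverse complement (0.971%). These are descriptions of letters in a short window, and absence there says nothing of a factor's binding.

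Crebbp changed over the course (F = 5.96, adjusted p = 0.00129). Its arrays read 9.53, 9.54 and 9.50 in untreated cells, and the 9 arrays of 30 min, 1 h and 2 h lay between 9.46 and 9.63. They read 9.26, 9.34 and 9.31 at 6 h, 9.36, 9.06 and 9.36 at 12 h, and 9.42, 9.39 and 9.27 at 24 h. All 9 of these, and the arrays at 36 h (9.18, 9.40 and 9.23) and 48 h (9.30, 9.45 and 9.34), lay below every untreated array. In the order of group means, 30 min (9.50 ± 0.04) and 48 h (9.36 ± 0.08) were the only neighbours without overlap. Crebbp fell by 0.22 ± 0.07 at 6 h (adjusted p = 0.0372), by 0.27 ± 0.07 at 12 h (adjusted p = 0.0105) and likewise by 0.26 ± 0.07 at 36 h (adjusted p = 0.0121), while the changes of -0.17 at 24 h and -0.16 at 48 h were not called (adjusted p of 0.113 and 0.115).

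The call for Crebbp at 6 h was lost when any 1 of the 6 arrays was left out, with changes of -0.24 to -0.20 and adjusted p of 0.0573 to 0.122. The 12 h call was lost without 12 h replicate 2 (-0.17, adjusted p = 0.114), and the 36 h call without 36 h replicate 1 (-0.21, adjusted p = 0.064). The array of 12 h replicate 2 was the lowest of its group for 6 of 8 members. Against 2 h, the 6 h arrays were also lower, by 0.24 ± 0.07 for Crebbp (adjusted p = 0.035) and likewise by 0.16 ± 0.05 for Ncoa2 (adjusted p = 0.0441), 2 of 8 members where 9.16% of all genes were called and 4.89% called lower. Leaving out any 1 of those 6 arrays ended the Crebbp call (adjusted p = 0.0572 to 0.124), and leaving out any but 6 h replicate 2 ended that of Ncoa2 (adjusted p = 0.0936 to 0.22). Centring the arrays ended both calls (Crebbp -0.18, adjusted p = 0.111; Ncoa2 -0.10, adjusted p = 0.284) and brought a higher call for Med1 (0.23, adjusted p = 0.0446).

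Ep300 fell at 12 h, by 0.23 ± 0.06 (adjusted p = 0.0107). Its arrays read 8.60, 8.37 and 8.56 at 12 h, against 8.80, 8.72 and 8.71 in untreated cells, and the groups did not overlap. At 6 h they read 8.53, 8.59 and 8.57, which also lay below all untreated arrays without passing (-0.17 ± 0.06, adjusted p = 0.0618). By 48 h the arrays read 8.63, 8.75 and 8.74 and overlapped untreated ones (-0.035, adjusted p = 0.755). The call over the course (F = 3.48, adjusted p = 0.0232) was lost with centred arrays (adjusted p = 0.113), with the replicate number as a block (adjusted p = 0.0539) and without 12 h replicate 2 (adjusted p = 0.0653). The 12 h call was lost without 12 h replicate 2 (-0.16, adjusted p = 0.0989) and without untreated replicate 1 (-0.20, adjusted p = 0.0544).

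A shift of a whole array cancels in a ratio of related genes within it, whereas a scaling that depends on intensity need not. The log2 ratio of Crebbp to Ep300 averaged 0.66 ± 0.04 (SD, n = 9) on the arrays of 24 h, 36 h and 48 h and 0.79 ± 0.04 (n = 3) on untreated arrays, a difference of -0.13. All 9 late arrays, from 0.58 to 0.71, lay below the untreated ones, from 0.74 to 0.83, and the exact two-sided permutation p was 0.00909, the smallest that 9 against 3 arrays can give (adjusted over 5 pairs, p = 0.0455). The ratio did not move 1 way over the course: its mean was 0.76 at 30 min, 0.83 at 1 h and 0.91 at 2 h, then 0.74 at 6 h and 0.75 at 12 h, and the 2 h arrays (0.83 to 0.96) lay above all untreated ones, a difference that was not tested. The late arrays are of 3 exposure times and were pooled for this test, which asks only whether the pair changed unequally. Leaving out any 1 array raised the adjusted p above 0.05, with differences of -0.15 to -0.11. In those smaller designs the smallest p allowed is itself larger, so these losses cannot decide whether the call rests on single arrays. The ratio of Ncoa1 to Ncoa2 was higher late by 0.16 (2.17 ± 0.09 late, 2.01 ± 0.08 untreated; exact permutation p = 0.0273, adjusted p = 0.0682), with 7 of 9 late arrays above all untreated ones, and did not pass. Nor did Ncoa2 to Ncoa3, lower late by 0.23 (0.85 ± 0.17 late, 1.08 ± 0.09 untreated; exact permutation p = 0.0455, adjusted p = 0.0758). By time the mean ratio of Ncoa2 to Ncoa3 was 1.08 in untreated cells, 1.18 at 12 h and 1.01 at 24 h, and the last 2 times gave 0.82 and 0.72. The pairs Ncoa1 to Ncoa3 and Tbl1xr1 to Tbl1x differed by -0.074 and 0.079 (exact permutation p = 0.545 and 0.164).

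**Figure D3:**
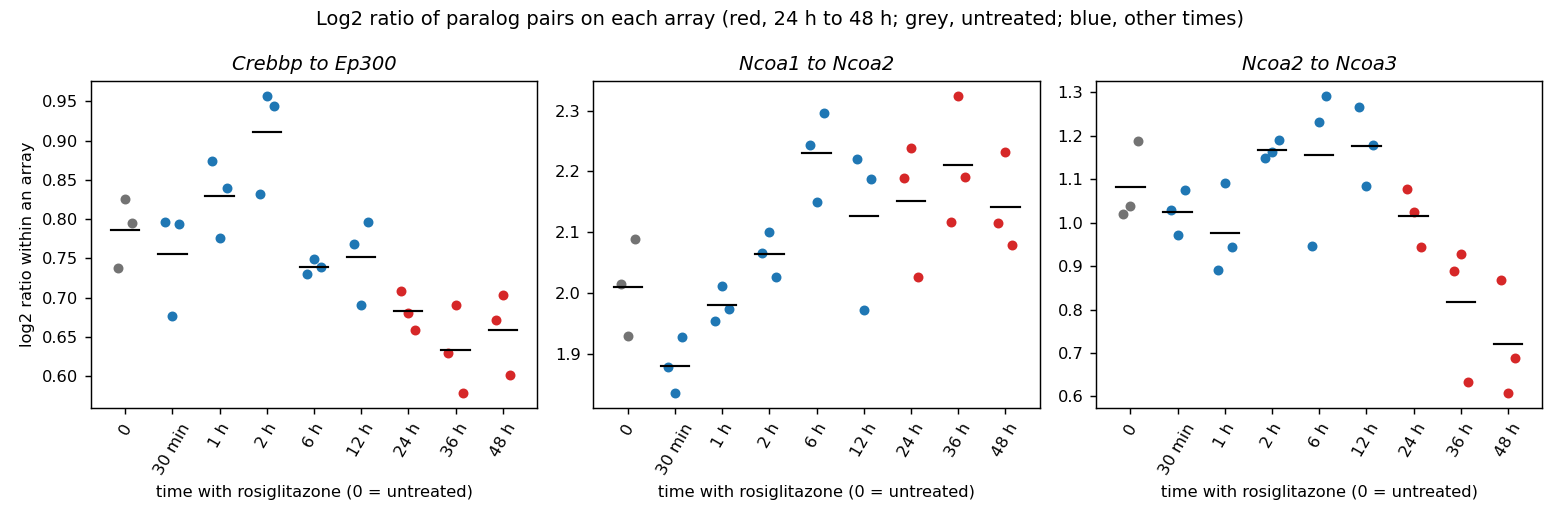
Log2 ratios of related coregulator genes within each array, by group from untreated to 48 h, with a point for each array and bars for group means; each panel has its own axis range. The Crebbp to Ep300 ratio lies between 0.58 and 0.71 on the 9 arrays of 24 h to 48 h and between 0.74 and 0.83 on the untreated arrays, while the Ncoa2 to Ncoa3 ratio averages 0.72 at 48 h and 1.08 in untreated cells.

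Med1 encodes the Mediator subunit that binds PPARγ directly and is known to be needed for fat cell formation in mouse cells. Its arrays read 8.68, 8.73 and 8.72 at 6 h and 8.68, 8.75 and 8.66 at 24 h, against 8.46, 8.50 and 8.54 in untreated cells. Both times lay above all untreated arrays, yet neither passed (0.21 ± 0.08, adjusted p = 0.0584 at 6 h and 0.19 ± 0.08, adjusted p = 0.0722 at 24 h). At 12 h, between them, the arrays read 8.76, 8.42 and 8.56 and overlapped untreated ones. The F-test over the course did not call Med1 (adjusted p = 0.113), but called it with centred arrays (adjusted p = 0.00662), with array weights (adjusted p = 0.0273) and when 12 h replicate 1 was left out (adjusted p = 0.041). The 24 h rise was called with genes above the median mean, centred arrays, array weights or the 30 min arrays as the baseline (adjusted p of 0.00871 to 0.0372). The 6 h rise was called in these settings and with a trended and robust variance (adjusted p of 0.00563 to 0.0402). No other setting run called either rise.

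On the corepressor side, Hdac3 encodes the deacetylase of the NCoR complex. Its 27 arrays ran from 10.43 to 10.63, with 10.45, 10.46 and 10.49 at 48 h, against 10.52, 10.53 and 10.55 in untreated cells. That difference, -0.067 ± 0.053, was its largest and did not pass (adjusted p over the course = 0.769), and over the 8 times the 95% intervals stayed between -0.18 and 0.15. Tbl1xr1 encodes TBLR1, which exchanges corepressors for coactivators on liganded receptors. It read 8.80, 9.05 and 8.92 at 36 h, against 9.09, 8.98 and 9.05 in untreated cells, and gave its largest change there, -0.12 ± 0.07, without a call (adjusted p over the course = 0.237). Its second probe set gave -0.022 at 36 h and 0.13 at 48 h, where the kept set gave -0.11, so the probe sets disagreed in sign at 48 h. Over the 8 times the 95% intervals for the kept set reached -0.27 and 0.22.

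Which members passed depended on how arrays were brought to a common scale. As deposited, the median change of all genes lay between -0.008 and 0.013 from 6 h on. The median of an array over the 18781 genes ran from 4.67 on 36 h replicate 1 to 4.82 on untreated replicate 1. After each array had been centred on that median, the median change was 0.078 at 6 h, 0.058 at 12 h and 0.075 at 24 h, with 0.086 and 0.059 for the last 2 times. Among called genes the share that was higher was 50.6% at 6 h and 52.5% at 48 h as deposited, and 76.5% and 65.9% after centring. After centring, 0 of the 3 members called at 6 h passed (Ncoa2 -0.098, adjusted p = 0.256; Ncoa3 -0.17, adjusted p = 0.106; Crebbp -0.14, adjusted p = 0.198), and Med1 passed as higher there (0.30, adjusted p = 0.00563) and at 24 h (0.27, adjusted p = 0.00871). At 12 h, Crebbp still passed (-0.21, adjusted p = 0.0413) and Ep300 did not (-0.17, adjusted p = 0.0539). At 36 h, Ncoa2 still passed (-0.17, adjusted p = 0.0335) and Crebbp did not (-0.18, adjusted p = 0.0731). At 48 h, Ncoa2 did not pass (-0.14, adjusted p = 0.0787) and Ncoa3 passed as higher (0.22, adjusted p = 0.0291). After a further quantile normalization instead of centring, the 8 called changes all still passed as lower. Ep300 at 6 h (-0.21, adjusted p = 0.0148) and Crebbp at 24 h (-0.20, adjusted p = 0.045) then passed as lower too. None of the 8 called changes turned its sign under any setting run (0 of 144 recomputed values). This says little, since several settings leave the estimate itself as it was. Leaving out arrays cannot turn a sign where the groups do not overlap, as held for every called change but Ncoa3 at 6 h.

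**Figure D4:**
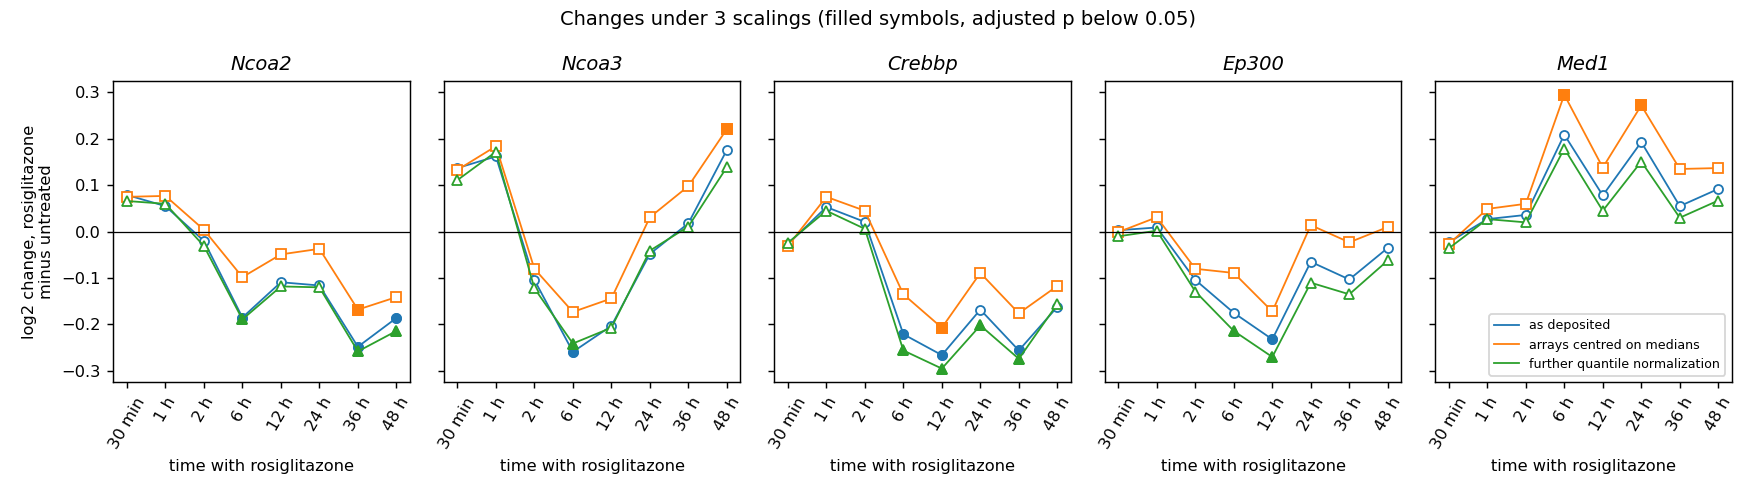
Log2 change against untreated of Ncoa2, Ncoa3, Crebbp, Ep300 and Med1 at the 8 times, with the deposited values, with arrays centred on their medians and after a further quantile normalization; filled symbols have an adjusted p below 0.05. From 6 h on the centred values lie above the deposited ones for each gene, so that Med1 at 6 h is 0.30 after centring and 0.21 as deposited.

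Over the 27 arrays, which share groups and scaling, the members ran together in part. Ncoa2 and Crebbp had a Pearson r of 0.77 (Spearman 0.81), Crebbp and Ep300 0.74 (0.64), Ncoa3 and Ep300 0.63 (0.75) and Ncoa1 and Tbl1xr1 0.79 (0.75), while the lowest was Ncoa3 with Tbl1xr1 at -0.51 (-0.52). The genes most like Ncoa2 among all 18781 were Elovl6 (r = 0.90), a fatty acid elongase, Trafd1 (0.90) and Dipk1a (0.90). Those most like Ncoa3 were Phf1 (0.90), Reep4 (0.86) and Arhgap10 (0.86). Those most like Crebbp were Jade3 (0.93), Atp2b1 (0.92), a plasma membrane calcium pump, and Wdfy3 (0.91), and those most like Ep300 were Il6st (0.88), the shared receptor subunit of the interleukin 6 family, Asap1 (0.86) and Arhgap21 (0.86). These values describe likeness over arrays and carry no test.

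Some genes of wider lists of the same machinery changed by more than any member did. These lists are longer, and many genes named below were picked for a small F-test p, which favours large changes. Of 19 measured corepressor partners of 20 listed, 14 changed over the course, as did 22 of 31 other coactivators (34 listed). So did 15 of 31 Mediator subunits (32 listed) and 16 of 19 nuclear receptors (22 listed). Beside them stood 40.5% of all genes, 65.9% of the 6844 bright genes, 4 of 8 members and 7 of 10 reference genes. At 48 h, when 12.6% of all genes were called higher and 11.4% lower, 2 corepressor partners were called higher and 5 lower, 5 other coactivators higher and 9 lower, 3 Mediator subunits higher and 3 lower, and 5 nuclear receptors higher and 8 lower. After centring the counts were 2 and 5, 5 and 8, 5 and 1, and 5 and 6 in the same order. The median changes at 48 h were -0.043, -0.073, 0.022 and -0.11, against -0.061 for the 8 members and 0.013 over all genes. The genes below were named by rule, but the times given for them were picked after their values were seen.

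Among corepressor partners, Sap30, a subunit of the Sin3 deacetylase complex, fell by 0.50 ± 0.12 at 2 h (adjusted p = 0.0106) and rose by 0.70 ± 0.12 at 6 h (adjusted p = 0.000143) and likewise by 1.08 ± 0.12 at 48 h (adjusted p = 1.64e-07). Nrip1, which encodes RIP140, a ligand-dependent corepressor of fat cell oxidative genes, rose by 0.45 ± 0.08 at 1 h (adjusted p = 0.00454) and fell by 0.44 ± 0.08 at 48 h (adjusted p = 0.000284). The class IIa deacetylase Hdac7 fell by 0.62 ± 0.07 at 6 h (adjusted p = 1.39e-06). The class I deacetylase Hdac1 fell by 0.46 ± 0.06 at 48 h (adjusted p = 4.4e-06), whereas its relative Hdac3 gave no call. Within the NCoR complex, Tbl1x fell by 0.21 ± 0.06 at 48 h (adjusted p = 0.011), and Gps2, a small subunit that restrains inflammatory signalling, fell by 0.25 ± 0.08 at 12 h (adjusted p = 0.019), a call lost on centring (-0.19, adjusted p = 0.0793), and was not called at 48 h (-0.070, adjusted p = 0.575).

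Among other coactivators, Ppargc1b, which encodes the mitochondrial coactivator PGC-1β, rose by 0.73 ± 0.08 at 2 h (adjusted p = 2.29e-06) and likewise by 0.87 ± 0.08 at 24 h (adjusted p = 2.88e-08). Its relative Ppargc1a rose by 0.68 ± 0.14 at 12 h (adjusted p = 0.000667) and likewise by 0.93 ± 0.14 at 48 h (adjusted p = 9.21e-06). Cited2, which encodes a CBP and p300 binding protein, fell by 1.16 ± 0.09 at 2 h (adjusted p = 5.12e-09) and likewise by 0.66 ± 0.09 at 48 h (adjusted p = 6.15e-06). The acetyltransferase Kat2a (GCN5) fell by 0.43 ± 0.07 at 24 h (adjusted p = 3.24e-05). Of the nuclear receptor coactivators outside the p160 family, Ncoa7 rose by 0.35 ± 0.07 at 6 h (adjusted p = 0.00136), and Ncoa6 fell by 0.32 ± 0.08 at 2 h (adjusted p = 0.0154). Ncoa6 also passed at 12 h (-0.26, adjusted p = 0.0258), a call lost on centring (-0.20, adjusted p = 0.0871), and was not called at 6 h (-0.087), 24 h (-0.036), 36 h (-0.14) or 48 h (-0.073).

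Med13l, of the kinase module, fell by 0.32 ± 0.06 at 48 h (adjusted p = 0.0004), and Med12, of the same module, fell by 0.33 ± 0.06 at 12 h (adjusted p = 0.000442) and was not called at 48 h (-0.088, adjusted p = 0.364). Med14, the backbone subunit, fell by 0.36 ± 0.08 at 24 h (adjusted p = 0.00204) and was not called at 48 h (-0.21, adjusted p = 0.0656). Med31 of the middle module rose by 0.31 ± 0.07 at 48 h (adjusted p = 0.00179).

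Among the receptors that these proteins serve, Pparg itself fell by 0.63 ± 0.05 at 2 h (adjusted p = 4.41e-09), with a drop of 0.30 ± 0.05 still at 48 h (adjusted p = 5.55e-05). Its partner Rxra fell by 0.40 ± 0.08 at 48 h (adjusted p = 0.000344). The retinoic acid receptor gene Rara fell by 0.72 ± 0.07 at 12 h (adjusted p = 6.84e-08). The vitamin D receptor gene Vdr fell by 0.85 ± 0.13 at 48 h (adjusted p = 1.28e-05). Nr4a1, an immediate early orphan receptor, rose by 0.84 ± 0.20 at 1 h (adjusted p = 0.0309) and fell by 0.97 ± 0.20 at 6 h (adjusted p = 0.000834). Genes often used as references moved too: at 48 h Actb fell by 0.34 ± 0.05 (adjusted p = 1.14e-05), Polr2a, a subunit of RNA polymerase II, fell by 0.37 ± 0.06 (adjusted p = 2.93e-05), Gusb fell by 0.71 ± 0.09 (adjusted p = 7.74e-07) and Hprt rose by 0.39 ± 0.08 (adjusted p = 0.000458), each by more than any member's largest change.

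**Figure D5:**
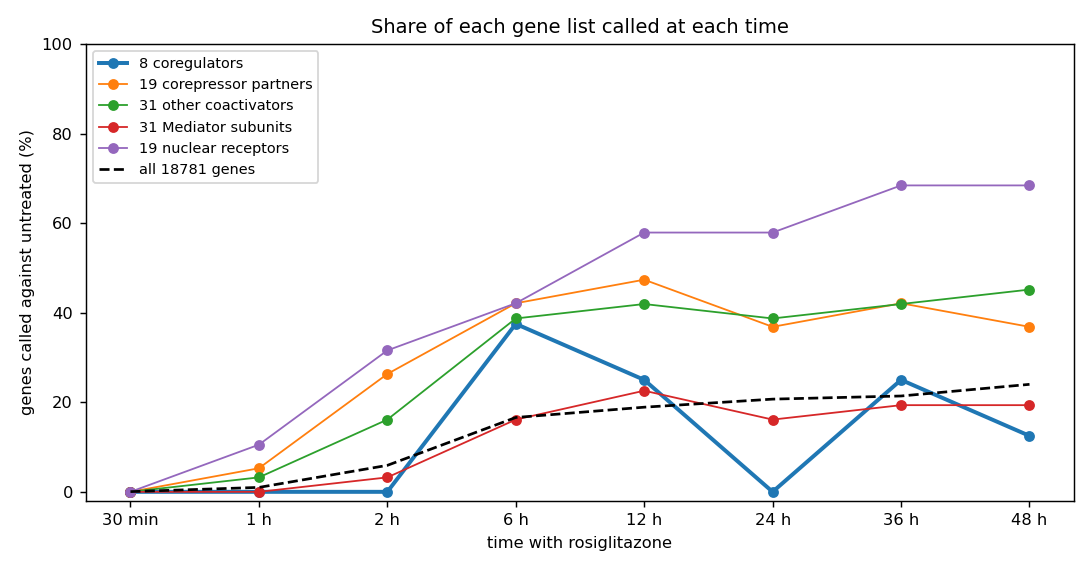
Share of the measured genes of each list called by limma against untreated at each time, in percent, with all 18781 genes as the dashed line. The members give 3 of 8 at 6 h, 0 of 8 at 24 h and 1 of 8 at 48 h, where all genes lie at 24%, the nuclear receptors at 13 of 19 and the other coactivators at 14 of 31.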

How the data were processed

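RNA of 27 mouse adipocyte samples, 9 groups of 3, was measured on arrays. Per the submitters' processing notes the authors used Partek and RMA, without versions or roles. Each value deposited by the authors is a log2 intensity and was used as given. Arrays give no molecule counts, and their number limits the precision. Of 28815 probe sets, 21153 carried 1 gene symbol, and the one with the highest mean stood for each of 18781 genes. Dim genes were kept. The sources used here do not give the annotation's genome build.

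A linear model without covariates covered all arrays (lmFit and eBayes of limma 3.58.1, R 4.3.3). Tests were two-sided, Benjamini-Hochberg adjusted over all genes, called below 0.05. Related genes were compared as within-array ratios by exact permutation. Genes outside the set were named by rule: a panel of coregulators and receptors, up to 4 per list with the smallest F-test p, and the 3 genes most correlated with each member called over the course. Members and lists were chosen with earlier results of these data known. Adgre1 was named as a defining marker, outside this rule. The model was tested on simulated data. Promoters came from RefSeq. Tables used Python 3.11.15, pandas 2.3.3, numpy 2.4.6 and scipy 1.17.1, and figures matplotlib 3.10.9. Alternatives were the replicate number as a block, another scaling (medians, quantiles), genes above the median mean, mean of probe sets, trended variance, array weights, only the arrays compared, leaving out arrays and, chosen after seeing the data, the 30 min arrays as the baseline.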

Additional observations from a re-analysis of the deposited data

Results flagged for a closer look

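Of the comparisons between exposure times, 48 h against 2 h called 2 members in opposite directions, each gene by its own test of that contrast (limma). The same contrast called 23.7% of all genes, 12.2% higher and 11.5% lower, and the groups did not overlap for 37.9%. The change of Ncoa2 against untreated differed by -0.166 on the log2 scale, 48 h minus 2 h (adjusted p = 0.0197), with 3 of 3 arrays at 48 h below all 3 at 2 h. That call was lost with centred arrays (-0.145, adjusted p = 0.0733). It was also lost without 2 h replicate 1, 2 h replicate 2 or 48 h replicate 2. The change of Ncoa3 differed by 0.280 in the same contrast (adjusted p = 0.0123), with 3 of 3 arrays at 48 h above all 3 at 2 h. The Ncoa3 call was lost without 48 h replicate 2 (0.249, adjusted p = 0.0574) or 48 h replicate 3 (0.243, adjusted p = 0.0622). The 2 h and 48 h changes use the same untreated arrays, which cancel in the difference. Without a control at each time, drug and time in culture cannot be told apart here. Whether the difference between the 2 genes itself changed between 2 h and 48 h was not tested.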

How the results depend on the processing

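Of 144 recomputed values of the 8 called changes, 95 kept their call, 49 kept the direction and lost the call, and 0 reversed. Many of these settings could not have reversed a sign. Of 1000 recomputed values of the other 56 changes, 977 stayed uncalled, 23 became called, and 81 had another sign. The number of members called at 6 h (3) was 5 with genes above the median mean, with a trended and robust variance or with array weights, and 1 with centred medians or only the 6 arrays compared. At 12 h (2) it was 1 with centred medians, 0 with 6 arrays and 4 with the 30 min arrays as the baseline. At 24 h (0) it was 2 with genes above the median mean or the 30 min baseline, and 1 with centred medians, quantiles or array weights. At 36 h (2) it was 1 with centred medians or 6 arrays, and at 48 h (1) it was 0 with 6 arrays. At 6 h against 2 h (2) it was 1 with quantiles, a trended variance or 6 arrays, and 1 with centred medians, Med1 as higher. At 48 h against 2 h (2) it was 1 with centred medians or 6 arrays, and 3 with a trended variance or genes above the median mean, which also gave 3 at 12 h. Without 1 array the counts ran from 0 to 2 at 6 h, 0 to 3 at 12 h, 1 to 2 at 36 h, 0 to 2 at 48 h, 0 to 1 at 6 h against 2 h, 0 to 2 at 48 h against 2 h and 3 to 5 over the course. Without replicate 1, 2 or 3 of every group they ran from 0 to 0 at 6 h, 48 h and 6 h against 2 h, 0 to 2 at 12 h, 1 to 2 at 36 h, 0 to 1 at 48 h against 2 h and 2 to 3 over the course. The Crebbp to Ep300 difference was -0.158, -0.124 and -0.101 in those and from -0.152 to -0.108 without 1 array. The cause was not tested, except that fewer arrays raise the smallest p.

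The replicate numbers did not pair the arrays: 3 of 108 same-numbered pairs had r over 0.1 (mean -0.122, against 0.061 for other pairs). With the number as a block, 0 members were called at 6 h against 2 h, 2 at 6 h, and 3 over the course. The Crebbp to Ep300 difference stayed -0.128 (exact permutation, adjusted p = 0.156). The blocked permutation allows fewer arrangements, and this pair gave the smallest p that it can return. It therefore cannot decide whether that call holds. A planned ratio with Ncor1 was not run.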
